A study of Homo sapiens with 8 samples.

Results

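The box C/D small nucleolar RNAs (snoRNAs) were taken as every gene whose symbol reads SNORD followed by a digit in the deposited tables of either cell line. There were 126 such genes among the 12715 genes of both tables together, with 113 in the CAL-62 table, 116 in the BCPAP table and 103 in both. RNA was sequenced from CAL-62 cells treated with THZ1 at 100 nM for 6 h, CAL-62 cells treated with the vehicle DMSO, BCPAP cells treated with THZ1 at the same dose and time, and BCPAP cells treated with DMSO, with 2 libraries in each group. Both are established human thyroid carcinoma lines, which the labels name anaplastic, and THZ1 is a covalent inhibitor of CDK7, a kinase of the RNA polymerase II machinery. CAL-62 was grown in DMEM and BCPAP in an RPMI medium with less serum, so a difference between lines cannot be told apart from one between media. Nothing in the labels states that the 2 libraries of a group came from separate cultures; the p-values below therefore rest on a spread between libraries that may be technical.

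Box C/D snoRNAs are short nucleolar RNAs that pair with ribosomal RNA and direct its 2′-O-methylation by the methyltransferase fibrillarin. The C box near the 5′ end and the D box near the 3′ end are bound by a core of proteins that protects the RNA, and the bases just before the D box, or before an internal copy of it, pair with the target. Most human members lie in introns of host genes and are cut out of the spliced intron, so that host transcription by RNA polymerase II makes both products. Many hosts are genes of the translation machinery, and others, such as GAS5 and the SNHG genes, are noncoding transcripts known mainly as snoRNA carriers. The mature snoRNA has no poly(A) tail, whereas these libraries were made from oligo(dT)-selected RNA. The files do not tell reads of the mature snoRNA apart from reads of unspliced or alternatively spliced host transcripts that run across it, so each value below is the level of all RNA counted under the snoRNA's symbol.

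The symbols were checked against sequence. Of the 126 members, 111 had a sequence under the same symbol in the GENCODE release 29 transcripts (GRCh38), with a median length of 80 bases and a range of 64 to 237. An exact C box (TGATGA starting within the first 15 bases) was present in 74, an exact D box (CTGA within the last 12 bases) in 92 and both in 64, or 57.7%. Searched on the RNA's own strand in the same windows, 0 of the 147 annotated box H/ACA snoRNAs (SNORA symbols) held both. The sequences below are those of members described in the results, 5′ to 3′, with exact C and D boxes in capitals. SNORD27, SNORD49A, SNORD49B, SNORD60, SNORD58C and SNORD104 had lower values under THZ1 in CAL-62, and SNORD110, SNORD95 and SNORD116-4 had higher ones. All 9 were picked from the members with both boxes.
SNORD27 (host SNHG1, chr11:62855012-62855083, minus strand): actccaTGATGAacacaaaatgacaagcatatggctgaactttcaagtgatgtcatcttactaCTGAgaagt
SNORD49A (host LRRC75A-AS1, chr17:16440036-16440106, plus strand): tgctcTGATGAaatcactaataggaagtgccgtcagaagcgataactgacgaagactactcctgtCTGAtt
SNORD49B (host LRRC75A-AS1, chr17:16439505-16439576, plus strand): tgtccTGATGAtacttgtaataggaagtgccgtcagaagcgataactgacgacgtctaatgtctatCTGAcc
SNORD60 (host SNHG19, chr16:2155023-2155105, minus strand): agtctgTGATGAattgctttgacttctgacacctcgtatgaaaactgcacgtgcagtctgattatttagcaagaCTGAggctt
SNORD58C (host RPL17, chr18:49489245-49489308, minus strand): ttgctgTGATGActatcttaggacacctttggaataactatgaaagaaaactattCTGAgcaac
SNORD104 (host SNHG25, chr17:64146083-64146152, plus strand): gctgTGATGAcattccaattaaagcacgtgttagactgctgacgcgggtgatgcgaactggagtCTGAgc
SNORD110 (host NOP56, chr20:2654212-2654286, plus strand): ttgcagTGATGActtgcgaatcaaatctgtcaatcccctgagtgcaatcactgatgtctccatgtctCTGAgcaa
SNORD95 (host RACK1, chr5:181243312-181243379, minus strand): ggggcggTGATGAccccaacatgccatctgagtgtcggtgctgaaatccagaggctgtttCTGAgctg
SNORD116-4 (host SNHG14, chr15:25059538-25059633, plus strand): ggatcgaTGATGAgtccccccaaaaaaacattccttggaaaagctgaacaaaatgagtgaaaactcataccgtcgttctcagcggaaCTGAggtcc

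SNORD49A and SNORD49B share an unbroken run of 35 bases that starts at base 18 of each. Among members with sequences of at least 80% identity were the SNORD116 copies (up to 98.9%), SNORD88A, SNORD88B and SNORD88C (87.9% to 91.2%), SNORD14A and SNORD14B (86.8%) and SNORD45A and SNORD45C (84.5%). Reads of such copies may be split or shared by the authors' counting, and their separate values are uncertain. SNORD116-20 and SNORD116-21 had identical values in every BCPAP library.

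Few reads lay behind each member. The deposited values are of an RPKM type (reads per length of the gene and per library total), and whole reads could be recovered from them. Over the 113 members in CAL-62 the median was 3 reads per THZ1 library and 10.5 per DMSO library, and over the 116 members in BCPAP it was 7.5 and 11. The member with the most reads in both lines was SNORD17, a guide for 28S rRNA hosted by SNX5, with 133 reads per DMSO library in CAL-62 and 70 in BCPAP. A mean of at least 10 DMSO reads was reached by 59 members in CAL-62 and 65 in BCPAP, and under 5 reads were counted for 31 and 29. At such depths the counting error of a single library is as large as many of the differences. Intervals and floors given below cover counting error only. Reads over all listed genes ranged from 16682283 to 19989514 per library.

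Genes are in a line's table only where the mean of that line's DMSO libraries exceeds 1, so a member enters through its DMSO level and a member with no DMSO reads could not be seen to rise. The members just inside this limit were SNORD116-6, SNORD119 and SNORD116-13 in CAL-62, with DMSO means of 1.14, 1.19 and 1.19, and SNORD116-21, SNORD116-20 and SNORD41 in BCPAP, with 1.03, 1.03 and 1.05. Members outside it are not in the tables. Of the listed members, 111 in CAL-62 and 112 in BCPAP had a mean value of at least 1 over all their libraries and were tested.

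**Figure D1:**
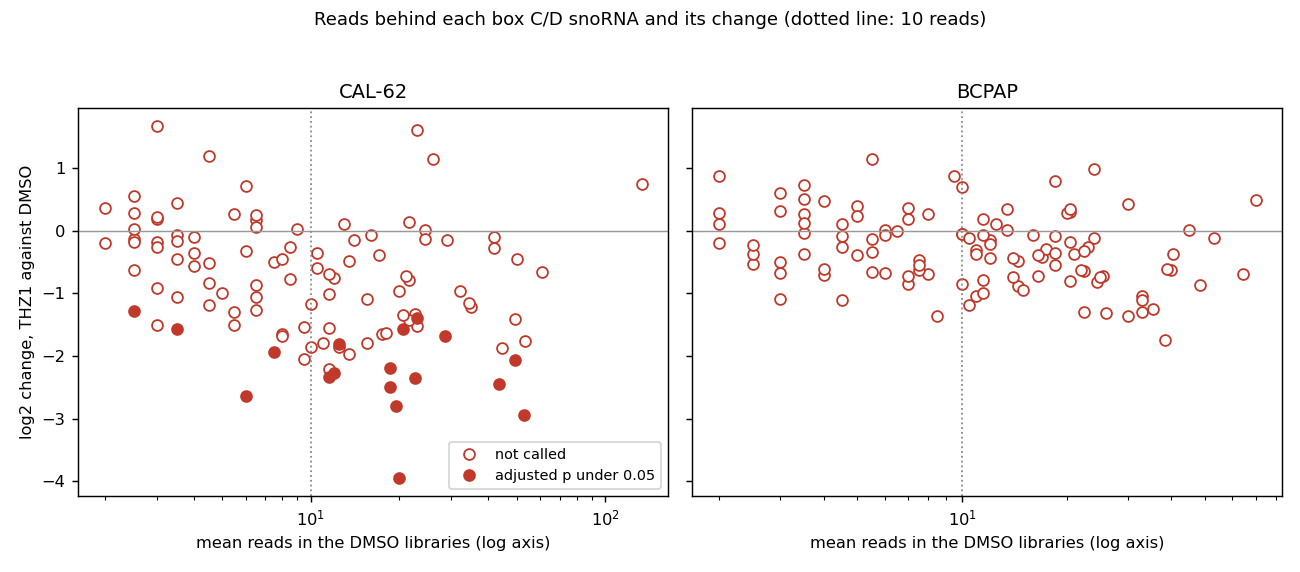
Log2 change (THZ1 against DMSO, vertical axis) of each tested box C/D snoRNA against its mean reads in the DMSO libraries (log axis), for CAL-62 on the left and BCPAP on the right; filled points have an adjusted p under 0.05. The 18 filled points are all below 0 in CAL-62, 14 of them right of the dotted line at 10 reads, and BCPAP has none.

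In CAL-62, 18 of the 111 tested members (16.2%) were lower under THZ1 and 0 were higher at an adjusted p under 0.05. Over all 11362 genes tested, 4.62% were called, 4.04% lower and 0.581% higher. In these bulk samples fewer cells of a kind and less RNA per cell cannot be told apart. The log2 change on the log2(value + 1) scale was negative in 90 members (48.2% of all genes), with a median of −0.83 beside 0.03 over all genes. Where the mean value had to reach 5, the medians were −1.20 for the members and 0.18 for all genes. Both THZ1 libraries lay below both DMSO libraries in 52 members and above them in 6, whereas over all genes the shares were 27.4% and 30.1%. The unadjusted p was under 0.05 in 45 members, against 30.1% of all genes. The 18 members had means of 2.5 to 53 DMSO reads. In none of them did the groups overlap, which their choice by p-value in the same comparison favours. Among the 59 members with at least 10 DMSO reads, 14 were called, 53 had a negative change and the median change was −1.33. Among the others, whose low values the added 1 shrinks most, the median was −0.40. A cut on DMSO reads itself favours negative changes. With a mean of at least 10 reads over all libraries of each line that lists the gene, 37 members were tested. Of these 11 were called and 33 were negative, with a median of −1.16.

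The number of calls rests on single libraries and on the model. It rose without the first CAL-62 THZ1 library and without either BCPAP THZ1 library. It was 2 without the first CAL-62 DMSO library, 0 without the second, 10 without the second CAL-62 THZ1 library, 7 without either BCPAP DMSO library, 1 by limma-voom on the recovered reads and 0 in a fit of the 4 CAL-62 libraries alone. It was 56 with the replicate number as a block, 8 where the mean value had to reach 5, 11 among genes with at least 10 reads, and 38 where libraries were scaled to their sums of reads, which puts the median change of all genes at −0.33 in place of 0.03. The change of each of the 18 stayed negative in every alternative in which it was tested. Because their groups did not overlap, most alternatives, such as leaving out a library or another pseudocount, could not have turned the sign. The second THZ1 library stood apart, with 561 member reads and 28 members at 0, beside 1070 reads and 10 members at 0 in the first; the median change between equally numbered libraries was −0.64 for the first pair and −1.22 for the second.

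Among the 5 host classes, the members of GAS5 had the lowest median change. Among single hosts with at least 3 members, 2 in the pooled classes had lower medians. These were LRRC75A-AS1 (−2.45, 3 members tested) and C19orf48 (−1.75, 2 tested). GAS5 is a noncoding gene whose spliced RNA is short-lived and whose introns hold 10 of the members, SNORD44, SNORD47 and SNORD74 to SNORD81. All 10 had a negative change in CAL-62 (48.2% of all genes), with a median of −1.71, and 4 were called (4.62% of all genes). SNORD44, a guide for 18S rRNA that is widely used as a reference RNA in microRNA assays, had 0 reads in both THZ1 libraries, against 19 and 21 reads (values 14.4 and 14.6) in the DMSO libraries. Against a floor of 3 reads per THZ1 library it was at least 4.69-fold lower, and the fitted log2 change was −3.96 ± 0.26 (SE, adjusted p = 0.0043). It was called in 17 of 19 alternatives, with adjusted p from 0.000245 to 0.123.

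SNORD81, a guide for 28S rRNA, had values of 1.68 and 3.73 in the THZ1 libraries (2 and 6 reads), against 21.6 and 32.6 in the DMSO libraries (40 and 66 reads). Its log2 change was −2.95 ± 0.43 (adjusted p = 0.019). SNORD79, which also guides 28S rRNA, had 3 and 1 reads under THZ1, against 30 and 15 under DMSO, and a change of −2.36 ± 0.47 (adjusted p = 0.0383). The fourth called member, the 28S guide SNORD76, had 8.94 and 3.30 under THZ1, against 34.3 and 20.4 under DMSO, and a change of −2.07 ± 0.43 (adjusted p = 0.0429). These 4 fell with no overlap between the groups.

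The other GAS5 members were not called. SNORD47, the member with the highest DMSO value of the 10, had 17.9 and 3.47 under THZ1, against 39.1 and 23.1 under DMSO, a change of −1.76 ± 0.60 (adjusted p = 0.104) in which the 2 THZ1 libraries stand far apart but both lie below the DMSO libraries. SNORD80 had 13.3 and 6.78 under THZ1, against 24.8 and 15.5 under DMSO (change −0.97, adjusted p = 0.128). SNORD74, SNORD75, SNORD77 and SNORD78 had between 0 and 4 reads in the THZ1 libraries, against 1 to 23 in the DMSO libraries. Groups overlapped in 2 of the 10, and in 8 both THZ1 libraries lay below both DMSO libraries (27.4% of all genes). GAS5 itself, counted over its exons, had values of 56.2 and 91.3 under THZ1, against 75.8 and 114 under DMSO, a change of −0.37 ± 0.29 (adjusted p = 0.417), and all 10 members lay below it.

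SNHG1, the noncoding host once named after the U22 snoRNA, holds 8 members, SNORD22 and SNORD25 to SNORD31. All 8 had a negative change in CAL-62 (48.2% of all genes), with a median of −1.42, and 1 was called (4.62% of all genes). SNORD27, a guide for 18S rRNA, had 1 read in each THZ1 library (values 1.01 and 0.743), against 20 and 19 reads (12.9 and 11.2) in the DMSO libraries. It fell by 2.80 ± 0.26 on the log2 scale (adjusted p = 0.012, and 0.0584 by limma-voom on the recovered reads). SNORD25 had 6.49 and 3.19 under THZ1, against 17.3 and 13.3 under DMSO (−1.53, adjusted p = 0.0586), and SNORD26, a 28S guide, had 12.6 and 5.70, against 24.1 and 17.0 (−1.16, adjusted p = 0.079). SNORD22 and SNORD31 were the 2 nearest to 0, with changes of −0.45 and −0.14 and overlapping groups. SNHG1 RNA itself had values of 107 and 43.0 under THZ1, against 102 and 135 under DMSO, a change of −0.78 ± 0.43 (adjusted p = 0.256). Of the 8 members, 6 lay below it.

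Of the 20 tested members with other noncoding hosts, 7 were called (4.62% of all genes). A negative change was found in 16 (48.2% of all genes), and the median was −0.40. LRRC75A-AS1, also known as SNHG29, holds SNORD49A, SNORD49B and SNORD65. SNORD49A, a guide for 28S rRNA, had 7.14 and 2.26 under THZ1 (7 and 3 reads), against 30.7 and 23.9 under DMSO (47 and 40 reads), a change of −2.45 ± 0.48 (adjusted p = 0.0373). SNORD49B shares its middle bases with SNORD49A in the sequences above. It had 0 reads in both THZ1 libraries, against 4 and 8 under DMSO (adjusted p = 0.0146). Its DMSO mean was 1.39 times the floor of 3 reads per THZ1 library. That ratio leaves out the counting error of the DMSO reads, so it does not give a least fold. SNORD65 had 5.95 and 2.93 under THZ1, against 15.2 and 9.88 under DMSO (−1.35, adjusted p = 0.0855). The host's own change was 0.55.

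The 28S guides SNORD60, SNORD87, SNORD12, SNORD104 and SNORD1C were the other called members of this class. SNORD60 in SNHG19 had 0 and 1 reads under THZ1, against 6 and 17 under DMSO (−2.34 ± 0.41, adjusted p = 0.0274). SNORD87 in SNHG6 had 3 and 1 reads, against 18 and 19 (−2.20 ± 0.41, adjusted p = 0.0318), and SNORD12 in ZFAS1 had 2 and 1, against 12 and 13 (−1.81 ± 0.30, adjusted p = 0.0235). SNHG6 and ZFAS1 themselves had changes of 0.73 and 0.58. SNORD104 in SNHG25 had values of 2.72 and 6.02 under THZ1, against 12.7 and 18.6 under DMSO (−1.68 ± 0.34, adjusted p = 0.0402). SNORD1C in SNHG16 was listed at 0 reads under THZ1, against 3 and 4 under DMSO, with a fitted adjusted p of 0.0315. The floor of 3 reads per THZ1 library (a value of 2.42) lies above its DMSO mean of 1.98, so a fall could not be shown at this depth, although it is counted among the 18. SNORD12B and SNORD12C, the neighbours of SNORD12 in ZFAS1, had 10 and 2, and 4 and 0, reads under THZ1, against 6 and 5, and 4 and 3, under DMSO, and neither was called.

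**Figure D2:**
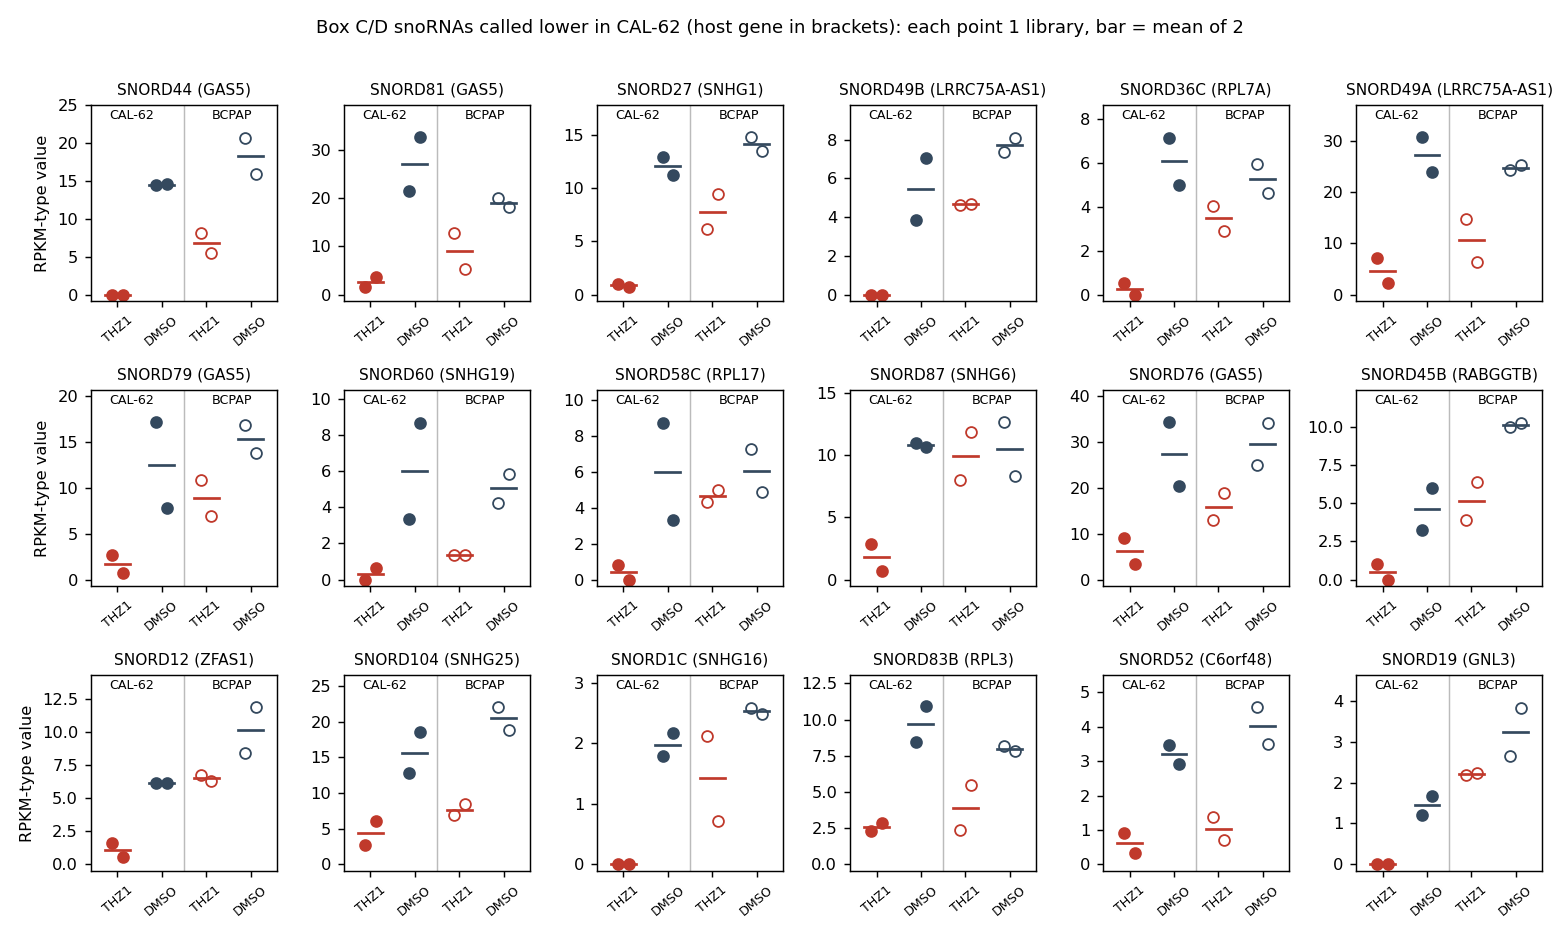
RPKM-type values of the 18 box C/D snoRNAs called lower in CAL-62, with CAL-62 (filled) left of BCPAP (open) and THZ1 (red) left of DMSO (dark) within each line; each point is 1 library and the bar is the mean of 2. In CAL-62 both THZ1 points lie below both DMSO points in all 18 panels, and in BCPAP they do in 16. Over all genes tested in BCPAP the share was 16.4%. The fit shares 1 spread over all 8 libraries, so a call in CAL-62 favours members whose BCPAP libraries lie close together.

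Ribosomal protein genes host 37 members, of which 35 were tested in CAL-62. A negative change was found in 31 (48.2% of all genes), with a median of −1.02, and 3 were called (4.62% of all genes). SNORD36C, a 28S guide in RPL7A, had 1 and 0 reads under THZ1, against 21 and 16 under DMSO, a change of −2.50 ± 0.30 (adjusted p = 0.0166). Its entry in the tables is 136 bases long, against 68 in RefSeq, so its value per length is spread over more than the snoRNA. SNORD58C in RPL17 had 1 and 0 reads under THZ1, against 17 and 7 under DMSO (−2.27 ± 0.44, adjusted p = 0.0363), and SNORD83B in RPL3, which has no known ribosomal target, had 2.34 and 2.88, against 8.47 and 11.0 (−1.56 ± 0.33, adjusted p = 0.0431).

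RPL7A also holds SNORD36A and SNORD36B, which were not called. Their entries, like that of SNORD36C, are at least 2 times as long as in RefSeq. SNORD36A had 16.1 and 8.17 under THZ1, against 19.6 and 18.0 under DMSO (−0.66, adjusted p = 0.182). SNORD36B had 1 and 0 reads under THZ1, against 7 and 15 under DMSO (−1.79, adjusted p = 0.0537). The 16 ribosomal protein hosts of these 35 members had changes between 0.80 and 1.04, none of them called, and each of the 35 members lay below its host. RPL37, whose member SNORD72 is not in the CAL-62 table, rose to 387 and 317 under THZ1, against 177 and 160 under DMSO (1.05 ± 0.22, adjusted p = 0.0417). SNORD14A and SNORD14B in RPS13 are 2 of the U14 RNAs, which take part in the processing of 18S rRNA. They had changes of −1.97 (adjusted p = 0.0976) and −1.33 (adjusted p = 0.0585). The 3 U14 copies in HSPA8, SNORD14C, SNORD14D and SNORD14E, had changes from −0.96 to 0.17. Their median was −0.35, and none was called.

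The other protein-coding hosts carry 45 members, of which 38 were tested in CAL-62. The change was negative in 25 (48.2% of all genes), with a median of −0.27, and 3 were called (4.62% of all genes). SNORD45B, an 18S guide in RABGGTB, had 1 and 0 reads under THZ1, against 5 and 10 under DMSO (−1.94 ± 0.40, adjusted p = 0.0423). SNORD52 in C6orf48, a 28S guide, had 4 and 2 reads, against 24 and 22 (−1.39 ± 0.28, adjusted p = 0.0397); the length of its entry is 320 bases in the tables and 64 in RefSeq. SNORD19 in GNL3 was listed at 0 reads under THZ1, against 2 and 3 under DMSO, with a fitted adjusted p of 0.0274. Its floor (2.49) also lies above its DMSO mean (1.45), and it too is counted among the 18 without a fall being detectable at this depth. SNORD88B in C19orf48, not called, had 3.73 and 6.06 under THZ1, against 22.9 and 17.9 under DMSO (−1.88 ± 0.44, adjusted p = 0.0522), and its host had 17.9 and 42.2, against 71.1 and 116 (−1.68, adjusted p = 0.0522).

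The members with higher values under THZ1 in CAL-62 were few, and none was called. SNORD116-4, in the imprinted SNHG14 locus whose loss is linked to Prader-Willi syndrome and which has no known ribosomal target, had 32.5 and 22.4 under THZ1 (44 and 41 reads), against 13.2 and 10.4 under DMSO (28 and 24 reads). Its change was 1.14 ± 0.26 (adjusted p = 0.0520). SNORD110, an 18S guide in NOP56, had 62.8 and 27.8 under THZ1 (65 and 39 reads), against 17.9 and 9.62 under DMSO (29 and 17 reads), a change of 1.60 ± 0.53 (adjusted p = 0.0973). SNORD95, a 28S guide in RACK1, had 7 and 11 reads under THZ1, against 4 and 2 under DMSO (1.67 ± 0.52, adjusted p = 0.0867). Within NOP56, SNORD56 had 38.8 and 5.27 under THZ1, against 26.8 and 10.2 under DMSO, and SNORD57 had 53.3 and 9.66, against 34.8 and 17.7. In each of the 2 the THZ1 libraries lie on either side of the DMSO libraries, and the host, itself a core protein of these particles, had a change of 0.74 (adjusted p = 0.117).

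A host in the tables was tested for 100 of the members tested in CAL-62, over 47 hosts. The member lay below its host in 87 of the 100 pairs, with a median change of −0.94 for the members and 0.68 for their hosts over the pairs. Of these 47 hosts SNHG12 was called lower and none was called higher; over all 53 hosts tested in CAL-62, RPL37 was called higher as well. Of the 15 called members with a tested host, 8 had a host with a positive change. The change was positive in 41 of all 53 hosts and in 5881 of the 11362 genes tested. Across pairs the 2 changes had r = 0.24 and rho = 0.19, as a description over pairs that share hosts and libraries. Per length, the median member stood at 3.90% of its host's DMSO level in CAL-62 and 4.79% in BCPAP. Members of 1 host share a transcript, and 37 members overlap an annotated coding or lncRNA exon and 35 a retained intron of their host. The strand setting of the counting is not given in the sources used here, so host reads within these values were not separated.

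**Figure D3:**
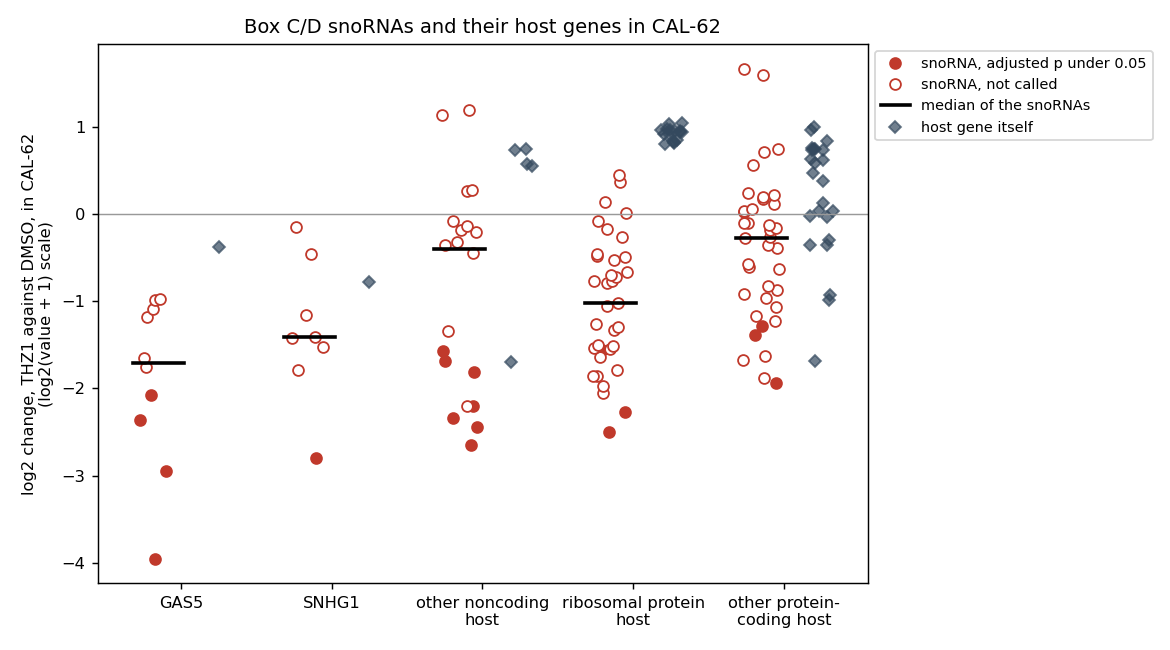
Log2 change (THZ1 against DMSO) in CAL-62 of each tested box C/D snoRNA (circles, filled where the adjusted p is under 0.05, with the median as a bar) and of its host gene (diamonds), by class of host. All 10 GAS5 members and all 35 members of ribosomal protein hosts lie below their hosts.

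Summed over the 113 members, the CAL-62 THZ1 libraries held 77.5 RPM, or reads per 1000000 of the authors' library total (95% exact Poisson interval 72.9 to 82.3) and 30.0 (27.6 to 32.6), against 91.7 (87.7 to 95.8) and 65.9 (62.6 to 69.2) in the DMSO libraries. The first THZ1 library lies between the 2 DMSO libraries on this scale. Relative to the reads in listed genes the sums were 64.1 and 28.1 per 1000000 under THZ1, against 105 and 80.3 under DMSO, without overlap. The 103 members in both tables were then summed by host class, in RPM of the authors' total. The GAS5 members came to 4.06 and 1.66 under THZ1, against 13.6 and 9.89 under DMSO. The other noncoding hosts gave 6.01 and 3.85, against 9.08 and 8.66, and the ribosomal protein hosts 15.6 and 6.42, against 21.6 and 18.5. The SNHG1 members overlapped, at 8.11 and 2.25 under THZ1, against 12.6 and 7.81 under DMSO. The other protein-coding hosts overlapped fully, at 42.2 and 14.0, against 33.7 and 19.3.

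**Figure D4:**
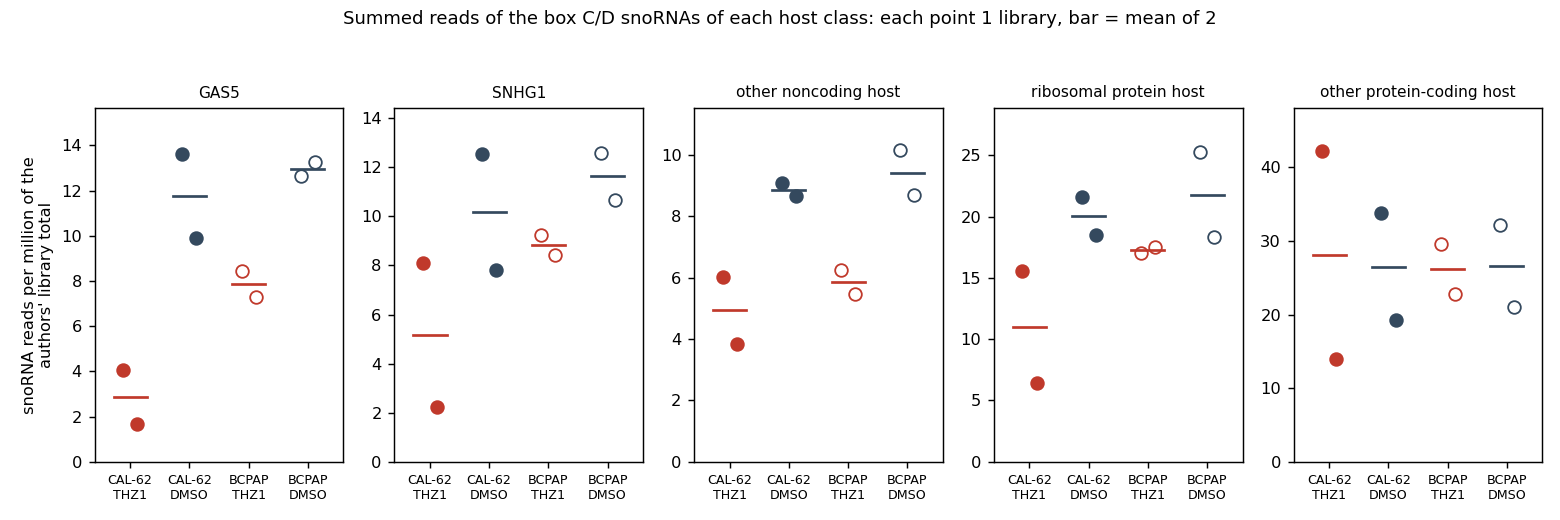
Summed level of the box C/D snoRNAs in RPM of the authors' library total (vertical axis, from 0), by class of host, for CAL-62 (filled) and BCPAP (open), with THZ1 (red) left of DMSO (dark); each point is 1 library and the bar is the mean of 2. The GAS5 members lie at 4.06 and 1.66 in the CAL-62 THZ1 libraries, below every other library, while the 2 groups overlap for other protein-coding hosts in both lines.

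In BCPAP no member was called among the 112 tested, as for all 11743 genes (0%), and limma-voom on the recovered reads called none either. The unadjusted p was under 0.05 for 13 members, beside 4.01% of all genes. A negative change was found in 80 members (41.4% of all genes), with a median of −0.35 beside 0.07 over all genes. Both THZ1 libraries lay below both DMSO libraries in 36 members (16.4% of all genes) and above them in 13 (21.9% of all genes). Summed over the 116 members, the sums were 72.2 and 62.6 RPM of the authors' total under THZ1, against 94.7 and 74.0 under DMSO. The nearest libraries of the 2 groups, at 72.2 (68.3 to 76.2) and 74.0 (70.3 to 77.8), lie within counting error of each other.

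The 5 largest non-overlapping negative changes in BCPAP, among members with a mean of at least 5, were those of SNORD88B, SNORD26, SNORD44, SNORD104 and SNORD49A. SNORD88B, a 28S guide, had 8.55 and 2.91 under THZ1, against 23.4 and 16.0 under DMSO (−1.74 ± 0.44). SNORD26 had 7.37 and 6.77, against 18.9 and 20.7 (−1.36 ± 0.34), and SNORD44 had 8.16 and 5.55, against 20.7 and 15.9 (−1.31 ± 0.26). SNORD104 had 6.91 and 8.47 under THZ1, against 22.1 and 18.8 under DMSO (−1.31 ± 0.34). SNORD49A had 14.8 and 6.36, against 24.2 and 25.3 (−1.26 ± 0.48). The adjusted p was 0.932 for each of the 5. The GAS5 members summed to 8.46 and 7.28 RPM under THZ1, against 12.6 and 13.3 under DMSO, and the SNHG1 members to 9.23 and 8.41, against 12.6 and 10.7. GAS5 itself had 85.7 and 101 under THZ1, against 102 and 104 under DMSO.

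Among members with a mean of at least 5, the largest non-overlapping positive changes in BCPAP were those of SNORD59A (1.14), SNORD110 (0.98), SNORD74 (0.87), SNORD56 (0.78) and SNORD2 (0.34), none of them called. SNORD110 had 22.8 and 39.9 under THZ1, against 22.2 and 9.71 under DMSO, and was among the highest in CAL-62 too. SNORD74 had 13.8 and 11.8, against 7.02 and 6.07, and was the 1 GAS5 member with a positive change in BCPAP, while its change in CAL-62 was −1.09.

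The 2 responses were compared directly as CAL-62 minus BCPAP. No member was called among 103 and no gene among 10653 (0%), by limma or by limma-voom on recovered reads; the unadjusted p was under 0.05 for 20 members, beside 5.28% of all genes. The greatest difference was that of SNORD44, −2.65 ± 0.36 (adjusted p = 0.834). With a pseudocount of 0.1 in place of 1, 1 member was called. The CAL-62 change lay below the BCPAP change in 77 of the 103 members, beside 50.8% of all genes. It was negative in both lines for 67 and positive in both for 10, and over the 103 members the changes had r = 0.54 and rho = 0.51, as a description across genes. The 18 members called in CAL-62 all had a negative change in BCPAP (41.4% of all genes), from −1.36 to −0.06 with a median of −0.83. A call in 1 line and none in the other does not show that the lines differ.

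**Figure D5:**
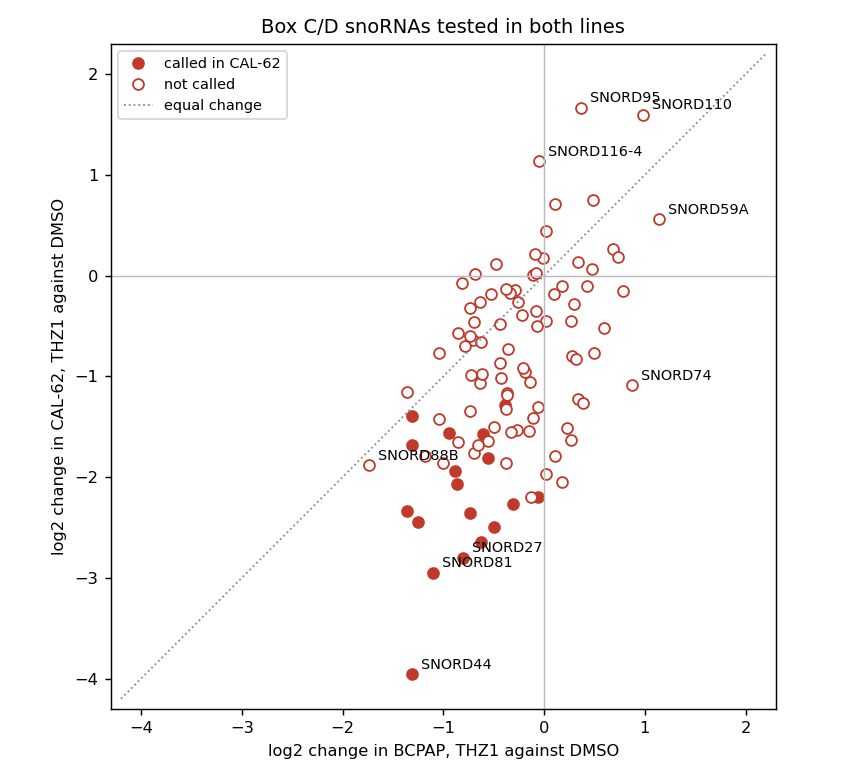
Log2 change of each box C/D snoRNA tested in both lines, CAL-62 on the vertical axis and BCPAP on the horizontal; filled points were called in CAL-62 and the dotted line marks equal change. Of 103 points, 77 lie below the line of equal change and 67 are negative in both lines.

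Under DMSO, levels were compared between CAL-62 and BCPAP. How the authors scaled the tables of the lines to each other is not given in the sources used here. Of 103 members, 3 were called, 2 lower and 1 higher in CAL-62, beside 14.1% of all 10653 genes (7.81% lower and 6.32% higher), and the difference was negative in 66 (49.4% of all genes), with a median of −0.15. SNORD45C, an 18S guide in RABGGTB, had 1.19 and 2.18 in CAL-62, against 15.5 and 12.5 in BCPAP (−2.50 ± 0.46, adjusted p = 0.0141). SNORD45A in the same host had 3.31 and 3.54, against 18.6 and 8.09 (−1.60 ± 0.40, adjusted p = 0.0385). RABGGTB itself, which encodes a subunit of a Rab prenylating enzyme, had 17.7 and 20.2 in CAL-62, against 60.5 and 41.6 in BCPAP (−1.36, adjusted p = 0.021). SNORD116-4 had 13.2 and 10.4 in CAL-62, against 5.67 and 4.46 in BCPAP (1.08 ± 0.26, adjusted p = 0.0343). The count was 0 without the second CAL-62 DMSO library, 0 without the first BCPAP DMSO library, 1 without the second, 5 without either CAL-62 THZ1 library and 0 among genes with at least 10 reads.

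The proteins of the particle were listed beside the RNAs. Fibrillarin (FBL), NOP56, NOP58 and NHP2L1 (SNU13), the 4 core proteins, had positive changes in CAL-62 from 0.65 to 0.99 and in BCPAP from 0.36 to 0.40, none of them called. FBL had 519 and 435 under THZ1 in CAL-62, against 248 and 228 under DMSO (adjusted p = 0.052). Of 32 genes listed for the core, assembly, trafficking and release of box C/D snoRNAs, 1 was called in CAL-62 (3.13%, beside 4.62% of all genes). This was TOE1, a nuclear deadenylase that trims the ends of small RNAs, which fell to 1.79 and 2.44 under THZ1, against 8.14 and 6.92 under DMSO (−1.46 ± 0.29, adjusted p = 0.037). None was called in BCPAP (limma), where 1 had an unadjusted p under 0.05.

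The box H/ACA snoRNAs, which guide pseudouridylation and lie in the same kind of host, are set beside these values. In CAL-62, 4 of the 47 tested were called, all lower (4.04% of all genes), 44 had a negative change (48.2% of all genes) and the median was −0.70. In BCPAP limma called 0 of 47 (3 with an unadjusted p under 0.05), 37 were negative (41.4% of all genes) and the median was −0.36. Of the noncoding hosts with SNHG symbols and GAS5, 3 of 12 were called lower in CAL-62, with a median change of −0.33. SNHG12, which hosts SNORD99, had 3.14 and 2.82 under THZ1, against 10.2 and 13.8 under DMSO. Markers fixed for the cell type gave KRT7, KRT8, KRT18 and the thyroid factor PAX8 in both lines, while the thyroid differentiation genes TG, TSHR and SLC5A5 and the marker CDH1 were in neither table. No marker of blood or endothelial cells was listed, and of the fibroblast markers only COL1A1 was. NKX2-1 and FOXE1 were listed in BCPAP only, and KRT19 and EPCAM in CAL-62 only. Of the 6 thyroid and epithelial markers tested in CAL-62, 5 had a positive change and none of these was called, among them KRT8 (1.03), KRT18 (0.86) and EPCAM (0.64), and the median was 0.57. PAX8 fell in CAL-62 to 5.20 and 29.8 under THZ1, against 91.1 and 117 under DMSO (−2.92, adjusted p = 0.047), and the part of these markers in the snoRNA results was not tested.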

How the data were processed

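The authors deposited 1 value per gene and library, of an RPKM type inferred from the values because no header names the unit. Per the submitters' processing notes the tools were Bowtie2 and DESeq2 and the build hg19, without roles; annotation and strand setting were not given in the sources used here. Per the labels' protocols, TRIzol RNA was oligo(dT)-selected. Reads and gene lengths came out whole for 12715 of 12715 genes (within 0.01 reads, 100% of values). The authors' totals follow size factors within 2.22% and depart from sums of reads by up to 23.3%, so a change in total RNA per cell would not show.

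limma 3.58.1 (R 4.3.3) was run with a trend on log2(value + 1), for genes with a mean of at least 1, on 4 group means over all 8 libraries; genes in 1 table were fitted on its 4 libraries. P-values are two-sided, Benjamini-Hochberg adjusted over all genes, and called under 0.05. The planned count test was not the main test because the values are normalized; limma-voom was run on the recovered reads, where it called 1 member and 219 genes in CAL-62. The fit was tested on simulated data in which only genes with more reads than most members were changed. It therefore does not show how the fit performs at the members' depth. For folds, a group without reads was set to a floor of 3 reads per library. Replicates differed beyond counting noise (chi-square per degree of freedom 66.9 to 121), so none was a repeated deposit. Hosts came from GENCODE release 29, and from RefSeq for the 15 members without a GENCODE sequence; sequences are GENCODE, GRCh38. The rule for named members took those called in any comparison, those with at least 10 DMSO reads in both lines, the 5 largest non-overlapping changes each way per line with a mean of at least 5, and those in GAS5 and SNHG1; of the second kind some are given only in counts. SNORD12B and SNORD12C fall outside it and were chosen after their values were seen. Members and lists were chosen with earlier results of these data known. Alternatives were 2 pseudocounts, other low-value filters and scalings, voom, a replicate block, each line alone and each library left out; the filter on 10 reads was added after seeing the data.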

Additional observations from a re-analysis of the deposited data

How the results depend on the processing

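In CAL-62 the 18 members called became 8 at a mean value of at least 5, 38 with sum-of-reads scaling, 1 with limma-voom, 0 with the line alone, 11 at 10 reads, and 0 to 24 with a library left out. The replicate block gave 56 (51 lower, 5 higher) and no call in BCPAP; the labels do not say what the numbers mark, and deviations of equally numbered libraries had r = 0.47 in CAL-62 and 0.77 in BCPAP over all genes. The 3 called between lines became 5 with pseudocount 5, 1 with voom, 12 with the replicate block, 0 at 10 reads, and 0 to 5 with a library left out. The difference of the responses had 1 member called with pseudocount 0.1, against 0 with 1. The median change in CAL-62 was −1.28 and −0.40 with pseudocounts 0.1 and 5, and −1.39 to −0.40 with a library left out; in BCPAP it was −0.19 with pseudocount 5 and −0.56 to −0.14 with a library left out. Setting the 5 members without THZ1 reads at the floor gave a CAL-62 median of −0.73. With a library left out, changes in CAL-62 ran from −1.51 to 0.60 for SNORD22, −0.63 to 0.34 for SNORD31 and −2.09 to 0.12 for SNORD77. The cause was not tested. No other single member given changed sign; calls were lost in 131 such values, gained in 26 and unmoved in 697. Depth limits single members, with medians of 3 to 11 reads per library.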
